A study of Mus musculus with 2 samples.

Results

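The genes described here encode the chemokines of the CC and CXC families, the receptors that bind them and the atypical receptors that take them up. They were the array rows annotated to a single gene whose symbol begins Ccl, Cxcl, Ccr or Cxcr followed by a number, together with Pf4, Ppbp and Ackr1 to Ackr4, and without Ccl28 and Ccr10. This gave 54 genes with a row each, out of 30671 genes with a row annotated to them alone. They were 34 ligands, 19 receptors and the pseudogene Ccl19-ps1. All but Ccl19-ps1 and Cxcl11, which RefSeq lists as a transcribed pseudogene in its mouse reference, are among the 18309 protein-coding genes called named genes below.

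The samples were Lgr5-GFP-positive intestinal stem cells sorted from the small intestine of circPan3-/-;Lgr5GFP-CreERT2 mice and of circPan3+/+;Lgr5GFP-CreERT2 mice, both aged 8 weeks. The Lgr5GFP-CreERT2 allele, which both genotypes carried, puts green fluorescent protein and an inducible Cre under the promoter of the stem cell receptor gene Lgr5, and it is known to be silent in some crypts. Total RNA of each sample was hybridised to an Affymetrix Clariom D mouse array, and the study asked how loss of circPan3, a circular RNA of the Pan3 locus, changes the RNA of these cells. There was 1 array per genotype, so the values below carry neither error nor p-value, and each difference compares the 2 arrays. The sources used here do not say how circPan3 was deleted or whether mice were pooled.

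Chemokines are small secreted proteins that steer leukocytes along a gradient, and their receptors are G protein-coupled. Inflammatory chemokines are made on demand, largely under NF-kappaB and interferon control, and bring neutrophils, monocytes and effector T cells to a damaged site. Homeostatic chemokines are made without a stimulus and place lymphocytes in tissues, as Ccl25 does in the small intestine. Platelet chemokines are stored in granules and set free on activation.

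Levels are log2 RMA signals, and every difference is the circPan3-/- level minus the circPan3+/+ level, in log2 units. The 95th percentile of 5222 negative control rows, here called the control limit, was 5.56 in circPan3-/- and 5.06 in circPan3+/+ cells. Where a value lay under its limit, the fold is a bound, from the brighter value to the limit of the dimmer array. Where both lay under, or the brighter value did not pass that limit, no fold is given. Named genes with a mean level of at least 2.53, the median of all rows, had a median difference of 0.36, so a chemokine gene with no difference of its own relative to other genes would stand near 0.36 and not near 0. This shift was 0.55 in the brightest eighth of these genes and 0.19 in the dimmest, and 0.27 in the negative control rows. Values found in more than 1 row made up 4.20% of the circPan3-/- column and 69.1% of the circPan3+/+ column. Among the 54 genes, 32 had such a shared circPan3+/+ value and 0 had a shared circPan3-/- value. Of the markers of the sorted cells, Lgr5 had a level of 7.02 in circPan3-/- and 10.91 in circPan3+/+ cells. Olfm4 had 10.28 in circPan3-/- and 11.53 in circPan3+/+ cells, and the epithelial gene Epcam had 9.65 in circPan3-/- and 8.51 in circPan3+/+ cells. Ascl2, a stem cell transcription factor gene, had 4.83 in circPan3-/- and 3.95 in circPan3+/+ cells, under the control limit on both arrays.

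The chemokine genes furthest below their circPan3+/+ level on the circPan3-/- array were inflammatory and platelet ligands. Of the 6 homeostatic ligands 5 lay under the control limit on both arrays, so their small differences say little, and the rows of the homeostatic family Ccl21, outside the rule, differed by -1.50 to -1.26. Of the 54 genes, 43 passed the level filter, and among them 12 were at least 2-fold lower, 3 at least 2-fold higher and 28 neither. The same rule called 2.83% of 13797 named genes lower and 9.73% higher. The 12 lower genes were Ccl2, Ccl7, Cxcl1, Cxcl2, Cxcl3, Cxcl5, Pf4, Ppbp, Ccl22, Ccr1, Cxcr6 and Cxcr4. The 3 higher genes, Ackr1, Cxcl11 and Ccl20, lay under the control limit on both arrays. Among the 19 genes past the filter whose circPan3+/+ value stood in no other row, 8 were lower and 1 higher. The lower genes that this leaves out were Ccl2, Ppbp, Cxcl5 and Cxcr6, whose circPan3+/+ values stood in 2, 6, 20 and 46 rows. The share of named genes under that restriction was not worked out. With bounds, 6 of the 54 genes (Ccl2, Pf4, Cxcl3, Ccl7, Cxcl2 and Cxcr4) were at least 2-fold lower and 0 at least 2-fold higher, against 0.415% and 2.69% of all 18309 named genes. The limit decides this count, since 0 genes remained with the 99th percentile of the negative control rows (8.14 in circPan3-/- and 8.07 in circPan3+/+ cells). Relative to the shift of 0.36, 16 genes were lower, against 5.02% of named genes, and Ackr1 alone was higher, against 3.9%. After loess on level 17 were lower and 2 higher, against 5.07% and 3.38% of named genes, and after quantile normalization 15 and 2, against 4.53% and 4.33%.

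**Figure D1:**
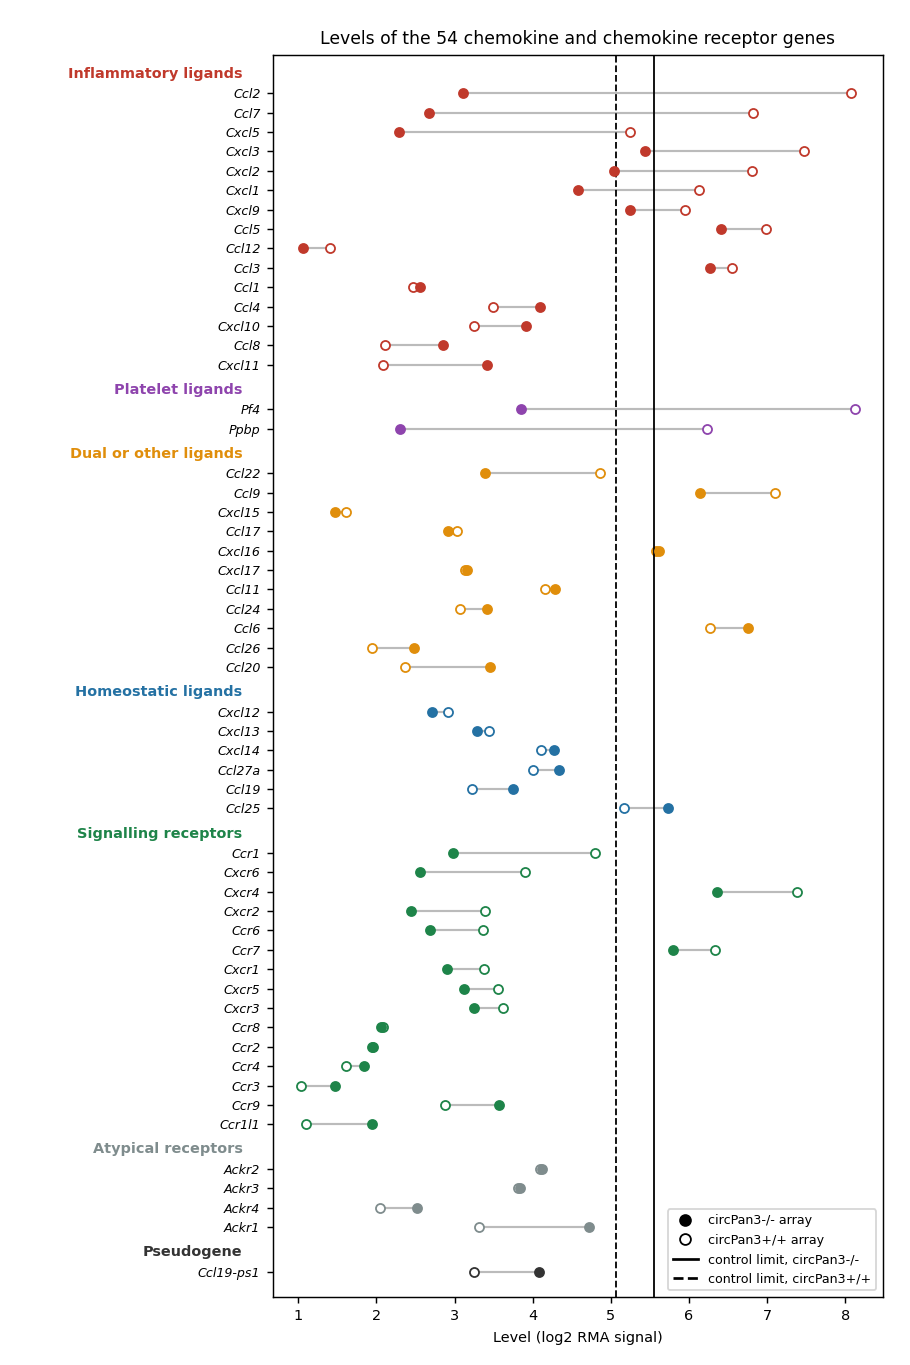
Level of each of the 54 genes (log2 RMA signal, horizontal axis) on the circPan3-/- array (filled) and the circPan3+/+ array (open), by class and sorted by difference; vertical lines are the control limits of 5.56 (circPan3-/-, solid) and 5.06 (circPan3+/+, dashed). Ccl2, Ccl7, Pf4 and Ppbp span the widest distances. Of the 54 genes, 37 lie under the limits on both arrays, against 14393 of 18309 named genes. Levels of different genes cannot be set against each other, because their probes differ.

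The monocyte attractants Ccl2 and Ccl7, both ligands of Ccr2, had the furthest differences among the CC ligands. Ccl2 had a level of 3.11 in circPan3-/- and 8.07 in circPan3+/+ cells, differing by -4.96, or at least 5.71-fold lower. It was the second lowest of the 13797 named genes past the filter, at rank 2. Ccl7 had a level of 2.68 in circPan3-/- and 6.81 in circPan3+/+ cells, differing by -4.13 at rank 11, or at least 2.39-fold lower. Both genes lay under the control limit in circPan3-/- cells and above it in circPan3+/+ cells. Set against the 99th percentile of the negative controls in circPan3+/+ cells, 8.07, Ccl2 was level with it and Ccl7 below it. Ccl12, another ligand of mouse Ccr2, had 1.06 in circPan3-/- and 1.40 in circPan3+/+ cells, under both limits.

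The remaining inflammatory CC ligands did not share this pattern. Ccl5, which attracts T cells and eosinophils, had a level of 6.41 in circPan3-/- and 6.98 in circPan3+/+ cells, differing by -0.57 or 1.48-fold. Ccl3, a macrophage inflammatory protein that acts on Ccr1, had 6.27 in circPan3-/- and 6.55 in circPan3+/+ cells, differing by -0.28. These are the inflammatory ligands above the control limit on both arrays, and both differences were under 2-fold as deposited. After loess on level, Ccl5 stood at -1.13, past 2-fold, and Ccl3 at -0.83. Ccl4, the close paralog of Ccl3, had 4.09 in circPan3-/- and 3.49 in circPan3+/+ cells, and Ccl8 differed by 0.74, with no fold in either case. Ccl1 differed by 0.09, with both levels under the limits.

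The neutrophil attractants Cxcl1, Cxcl2, Cxcl3 and Cxcl5, which act through Cxcr2, were all 4 at least 2-fold lower as deposited. Cxcl3 had a level of 5.44 in circPan3-/- and 7.46 in circPan3+/+ cells, differing by -2.03, or at least 3.75-fold lower. Cxcl2 had 5.04 in circPan3-/- and 6.80 in circPan3+/+ cells, differing by -1.76, or at least 2.37-fold lower. Cxcl1 had 4.58 in circPan3-/- and 6.12 in circPan3+/+ cells, differing by -1.54, where the limit allows a statement of at least 1.48-fold lower. All 3 were below the limit in circPan3-/- cells and above it in circPan3+/+ cells. Cxcl5, which epithelial cells can produce, had 2.29 in circPan3-/- and 5.24 in circPan3+/+ cells. Its difference was -2.95 at rank 40, but no fold can be given, since 5.24 is below the circPan3-/- limit, and the circPan3+/+ value stood in 20 rows.

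The upstream sequences of Cxcl1, Cxcl2 and Cxcl3 are shown because these 3 neighbouring genes were lower together and carry the same match to the NF-kappaB consensus. That of Cxcl10 is shown because it also carries matches and was not called lower. Cxcl10 lay under the limits on both arrays, however, and allows no fold. Each line gives the 250 bases before the annotated start, 5′ to 3′, from the RefSeq promoter table (GRCm38.p6), with bases in a motif match in capitals. The Cxcl1 window is chr5:90890995-90891244 on the plus strand, that of Cxcl2 chr5:90903649-90903898 on the plus strand, that of Cxcl3 chr5:90785851-90786100 on the plus strand and that of Cxcl10 chr5:92348890-92349139 on the minus strand.
Cxcl1: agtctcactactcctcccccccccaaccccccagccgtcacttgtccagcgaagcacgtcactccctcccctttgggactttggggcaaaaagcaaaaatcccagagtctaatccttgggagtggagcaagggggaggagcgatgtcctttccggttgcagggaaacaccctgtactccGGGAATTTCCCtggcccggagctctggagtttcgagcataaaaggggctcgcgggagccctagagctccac
Cxcl2: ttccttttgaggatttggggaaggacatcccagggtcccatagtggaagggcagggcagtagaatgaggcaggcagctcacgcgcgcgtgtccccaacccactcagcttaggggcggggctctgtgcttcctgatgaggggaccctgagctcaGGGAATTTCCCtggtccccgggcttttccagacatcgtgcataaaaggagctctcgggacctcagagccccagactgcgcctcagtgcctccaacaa
Cxcl3: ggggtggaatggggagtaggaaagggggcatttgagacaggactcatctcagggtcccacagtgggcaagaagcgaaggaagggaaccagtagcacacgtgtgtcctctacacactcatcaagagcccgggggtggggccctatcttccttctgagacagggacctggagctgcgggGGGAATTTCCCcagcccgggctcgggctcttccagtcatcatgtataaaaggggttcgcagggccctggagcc
Cxcl10: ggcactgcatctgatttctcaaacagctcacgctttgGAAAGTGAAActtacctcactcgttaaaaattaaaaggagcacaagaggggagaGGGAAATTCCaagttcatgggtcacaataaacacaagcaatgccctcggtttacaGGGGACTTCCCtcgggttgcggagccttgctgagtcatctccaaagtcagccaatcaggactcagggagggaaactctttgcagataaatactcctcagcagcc
In each of the first 3 windows the match is GGGAATTTCC, which begins 71 bases before the start in Cxcl1, 97 in Cxcl2 and 73 in Cxcl3, with an overlapping match on the other strand. Cxcl10 holds GGGAAATTCC beginning 159 bases before the start and overlapping matches beginning 104 and 103 bases before it. It also holds GAAAGTGAAA, a match to the interferon response element GAAANNGAAA, beginning 213 bases before the start. Both motifs were searched on both strands of windows of 250 bases before and 50 after the start. The NF-kappaB consensus was found in 8.46% of 32851 windows and the interferon element in 3.44%. Windows were present for 40 of the 54 genes, of which 12 held the NF-kappaB consensus and 3 (Ccl19, Cxcl10 and Cxcl14) the interferon element. Of the 12 lower genes, 9 had a window and 4 of these (Ccr1, Cxcl1, Cxcl2 and Cxcl3) held the NF-kappaB consensus, against 8 of 31 among the other genes. Cxcl1, Cxcl2 and Cxcl3 are neighbours with the same match and so not separate cases, and Ccr1 allows no fold. No excess can be read from these shares. Ccl2, Ccl7 and Cxcl5 had no window and were not searched. A match is a description of the letters and says nothing of binding.

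The interferon-induced ligands of Cxcr3 include 1 gene above a control limit, Cxcl9. Cxcl9 had a level of 5.25 in circPan3-/- and 5.95 in circPan3+/+ cells, differing by -0.71, or at least 1.32-fold lower. Cxcl10 had 3.91 in circPan3-/- and 3.24 in circPan3+/+ cells, differing by 0.67. Cxcl11 had 3.41 in circPan3-/- and 2.09 in circPan3+/+ cells, differing by 1.32, and both genes lay under the limits on both arrays. Cxcl9 passed 2-fold lower after centring (-1.06), loess (-1.21) and quantile normalization (-1.04). Cxcl11 stood at 0.97 after centring, 1.14 after loess and 1.13 after quantile normalization. No direction common to the 3 genes can be read from these values, and the values of Cxcl10 and Cxcl11 allow no fold.

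The platelet chemokines were among the lowest named genes. Pf4, or platelet factor 4, had a level of 3.85 in circPan3-/- and 8.12 in circPan3+/+ cells, differing by -4.27 at rank 7, or at least 5.92-fold lower. Ppbp, whose product is processed to a Cxcr2 ligand, had 2.31 in circPan3-/- and 6.23 in circPan3+/+ cells, differing by -3.92 at rank 17, or at least 1.59-fold lower. Both were under the limit on the circPan3-/- array alone. Of 6 other platelet and megakaryocyte genes with a row (Itga2b, Itgb3, Gp9, Gp6, Treml1 and Clec1b), all 6 lay under the limits on both arrays, and 2 (Clec1b and Itgb3) were at least 2-fold lower as deposited. Itga2b, the platelet integrin gene, had 4.04 in circPan3-/- and 3.96 in circPan3+/+ cells, and Clec1b differed by -1.58. Log2 of the summed signal of the 6 genes was 6.02 in circPan3-/- and 6.39 in circPan3+/+ cells.

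**Figure D2:**
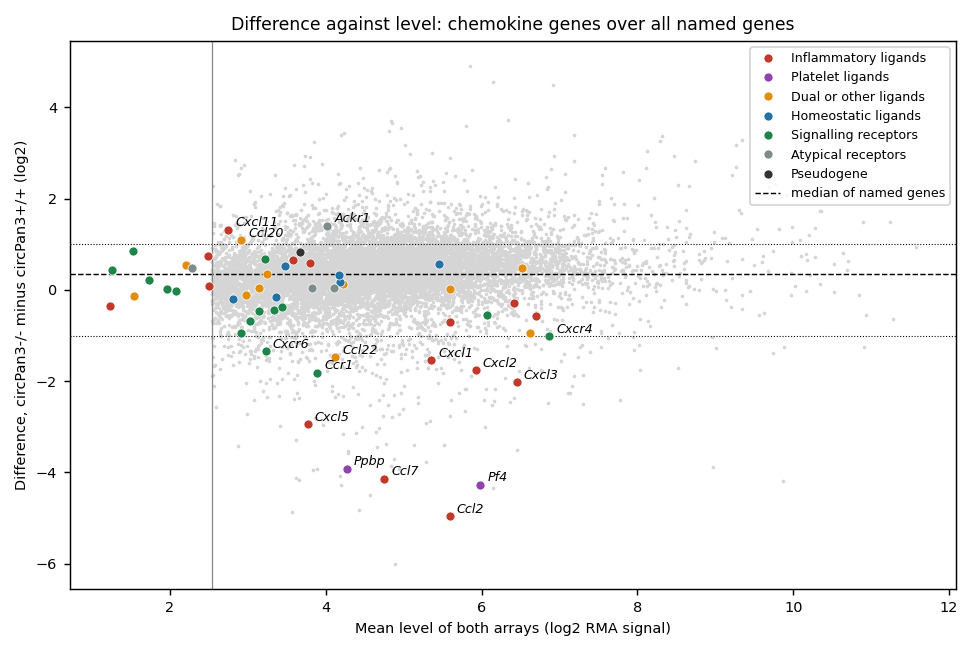
Difference (circPan3-/- minus circPan3+/+, log2, vertical axis) against the mean level of both arrays (log2 RMA signal, horizontal axis) for 13797 named genes past the level filter (grey) and the 54 chemokine genes (coloured by class); labels mark genes at least 2-fold apart, the vertical line the filter at 2.53, the dashed line the median of 0.36 and dotted lines 2-fold. Ccl2, Ccl7, Pf4 and Ppbp lie at the lower edge of all genes.

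The 6 homeostatic ligands with a row of their own were under 2-fold apart, 5 of them with both levels under the limits, and the Ccl21 family was lower as deposited. Ccl25, the thymus and small intestine chemokine that guides Ccr9-bearing T cells, had a level of 5.73 in circPan3-/- and 5.17 in circPan3+/+ cells, differing by 0.56 or 1.48-fold, and was the only one above the limits on both arrays. The circPan3+/+ value of Ccl25 stood in 102 rows. The lymph node ligand Ccl19 had 3.75 in circPan3-/- and 3.22 in circPan3+/+ cells. Ccl27a differed by 0.33 and Cxcl14, an epithelial chemokine, by 0.17. Cxcl12, the stromal ligand of Cxcr4, had 2.71 in circPan3-/- and 2.91 in circPan3+/+ cells. The B cell attractant Cxcl13 differed by -0.16. The 6 differences ran from -0.20 to 0.56, all under 2-fold. Ccl21, the lymphatic ligand of Ccr7, has several near-identical gene copies, and its 9 rows are each annotated to several genes and stood outside the rule. They had 5.02 to 5.58 in circPan3-/- and 6.51 to 6.98 in circPan3+/+ cells, with differences from -1.50 to -1.26, so this homeostatic family was at least 2-fold lower as deposited, with circPan3-/- levels near the control limit of 5.56.

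The median difference over the 12 inflammatory ligands past the filter was -1.12, against 0.25 over the 6 homeostatic ligands, -1.38 between them, and 0.36 over all named genes. Of the 12, 6 were at least 2-fold lower and 1 higher, and of the 6, 0 either way. Among all 15 inflammatory ligands the differences ran from -4.96 to 1.32 and the median was -0.57. The filter favours ligands that were bright on either array, so the median of -1.12 does not stand for all inflammatory ligands. On the other side, 5 of the 6 homeostatic ligands and 6 of the 15 inflammatory ones lay under the limits on both arrays, where a difference cannot be told from background, so the gap is no measure of how the classes differ in these cells. The gap between the classes was -0.82 without the filter and -0.53 when dual or other ligands were counted as inflammatory. With the brightest Ccl21 row counted as homeostatic, an alternative chosen after seeing the data, it was -1.30. The 6 lower inflammatory ligands act on Ccr2 (Ccl2 and Ccl7) or Cxcr2 (Cxcl1, Cxcl2, Cxcl3 and Cxcl5). The 3 ligands of Cxcr3 ran from -0.71 to 1.32 as deposited, and Cxcl9 among them passed 2-fold lower after centring, loess and quantile normalization.

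**Figure D3:**
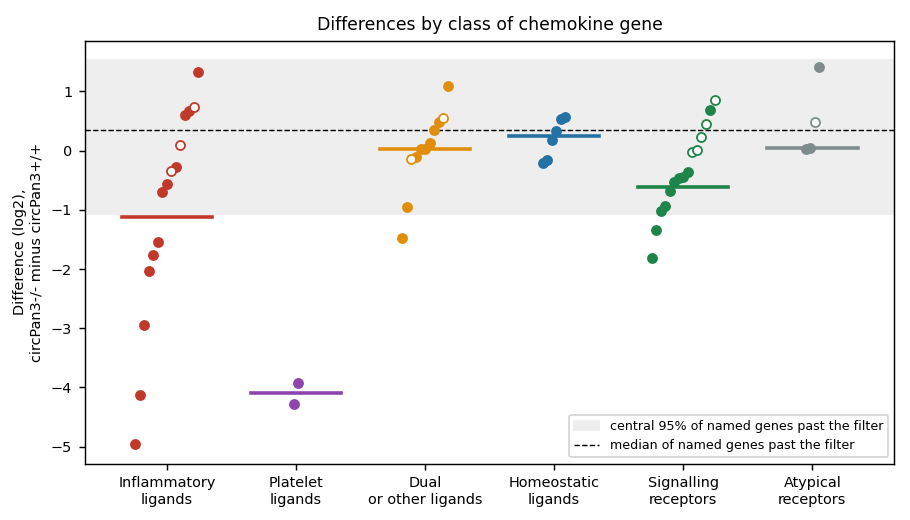
Difference (circPan3-/- minus circPan3+/+, log2) of each gene by class; filled points passed the level filter, open points did not, and coloured lines are medians over filled points. The shaded band holds the central 95% of named genes past the filter (-1.07 to 1.53) and the dashed line their median of 0.36; inflammatory ligands spread from -4.96 to 1.32, homeostatic ligands from -0.20 to 0.56, with 5 of these 6 under the limits on both arrays.

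Ligands with both or other functions were mixed. Ccl9, a myeloid CC chemokine of the mouse, had a level of 6.14 in circPan3-/- and 7.09 in circPan3+/+ cells, differing by -0.95 or 1.93-fold, just short of the 2-fold rule as deposited and past it after centring (-1.31), loess (-1.51) and quantile normalization (-1.25). Ccl6, its neighbour and likewise a ligand of Ccr1, had 6.75 in circPan3-/- and 6.27 in circPan3+/+ cells, differing by 0.48. After loess Ccl6 stood at -0.078, and both genes were above the limits on both arrays. Cxcl16, the membrane-bound ligand of Cxcr6, had 5.61 in circPan3-/- and 5.58 in circPan3+/+ cells, differing by 0.03. Ccl22, a dendritic cell and macrophage ligand of Ccr4, had 3.39 in circPan3-/- and 4.86 in circPan3+/+ cells, differing by -1.47 with both levels under the limits. Ccl20, which epithelium over lymphoid follicles makes to attract Ccr6-bearing cells, had 3.46 in circPan3-/- and 2.37 in circPan3+/+ cells, differing by 1.09, also under the limits. The other 6 (Ccl11, Ccl17, Ccl24, Ccl26, Cxcl15 and Cxcl17) differed by -0.14 to 0.54, with no fold for any.

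Genes next to each other on the chromosome did not all move alike. On chromosome 5 the RefSeq map places Cxcl5, Ppbp, Pf4, Cxcl3, Cxcl15, Cxcl1 and Cxcl2 in a run with no other protein-coding gene between them, and 6 of these 7 were at least 2-fold lower. Cxcl15, the exception, had 1.47 in circPan3-/- and 1.61 in circPan3+/+ cells, both far under the limits. On chromosome 11, Ccl2 and Ccl7 begin a run that continues with Ccl11, Ccl12, Ccl8 and Ccl1, and 2 of the 6 were at least 2-fold lower. The 4 others lay under the limits, with differences from -0.35 to 0.74. A second run on chromosome 11 holds Ccl5, Ccl9, Ccl6, Ccl3 and Ccl4, and 0 of 5 were 2-fold apart as deposited, although Ccl5 and Ccl9 passed 2-fold lower after loess.

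**Figure D4:**
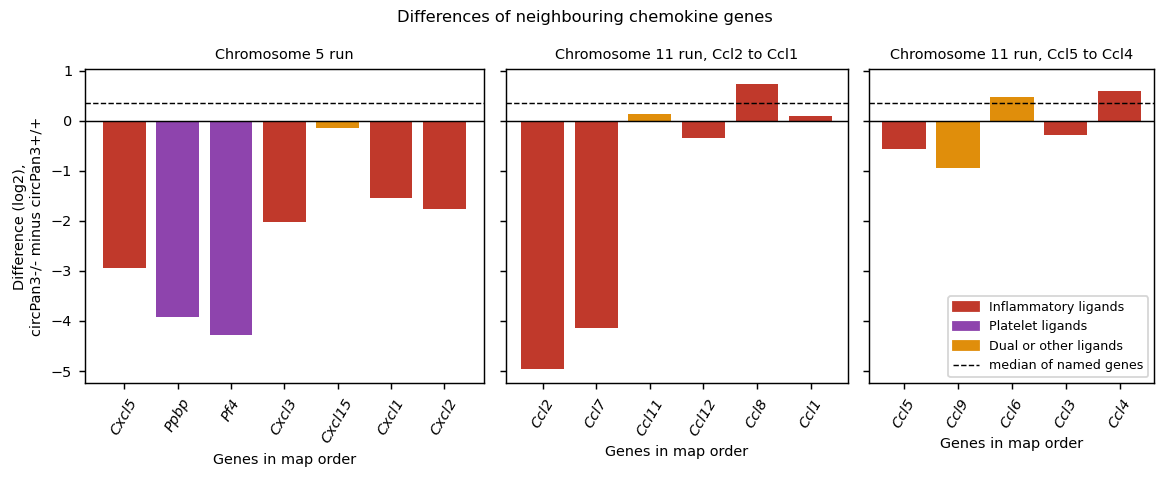
Difference (circPan3-/- minus circPan3+/+, log2, vertical axis) of chemokine genes in 3 runs of neighbours, in map order along the horizontal axis; bars start at 0 and the dashed line is the median of named genes, 0.36. In the chromosome 5 run 6 of 7 bars lie below -1, and on chromosome 11 only Ccl2 and Ccl7 do.

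Of the receptors, Cxcr4 and Ccr7 were above the control limit on both arrays. Cxcr4, the receptor of Cxcl12, had a level of 6.36 in circPan3-/- and 7.38 in circPan3+/+ cells, differing by -1.02 or 2.03-fold, just past the rule. It was the only gene of the 54 at least 2-fold lower with both values above the limits. Ccr7, which leads dendritic cells and naive T cells to lymph nodes, had 5.79 in circPan3-/- and 6.33 in circPan3+/+ cells, differing by -0.54 or 1.45-fold, and -1.07 after loess.

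The other 17 receptors lay under the limits on both arrays and allow no fold. Among them, Ccr1, a receptor of monocytes and neutrophils, had 2.98 in circPan3-/- and 4.80 in circPan3+/+ cells, differing by -1.82. Cxcr6, found on T and innate lymphoid cells, had 2.56 in circPan3-/- and 3.90 in circPan3+/+ cells, differing by -1.34. The neutrophil receptor Cxcr2 had 2.45 in circPan3-/- and 3.39 in circPan3+/+ cells, differing by -0.94. Ccr2, the receptor of Ccl2 and Ccl7, had 1.96 in circPan3-/- and 1.95 in circPan3+/+ cells, far under the limits on both arrays. Ccr9, the receptor of Ccl25, had 3.56 in circPan3-/- and 2.88 in circPan3+/+ cells, differing by 0.68. Ccr3, Ccr4, Ccr8 and Ccr1l1 did not pass the level filter, nor did Ccr2 and Ackr4, and their differences ran from -0.03 to 0.86. Ccr6, Cxcr1, Cxcr3 and Cxcr5 differed by -0.68, -0.47, -0.37 and -0.44.

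The atypical receptors bind chemokines without G protein signalling. Ackr1, which endothelium and red cells carry, had 4.72 in circPan3-/- and 3.31 in circPan3+/+ cells, the furthest positive difference of the 54 at 1.41. Ackr2 and Ackr3 differed by 0.03 and 0.04 and Ackr4 by 0.48. Over the 13 receptors past the filter, 3 were at least 2-fold lower and 1 higher, with a median of -0.47, but over all 19 the median was -0.03. The pseudogene Ccl19-ps1 had 4.08 in circPan3-/- and 3.24 in circPan3+/+ cells.

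Genes that induce chemokines, or that belong to the NF-kappaB and interferon pathways, were for the most part not lower. Of 16 such genes with a row, among them the inhibitor gene Nfkbia, 6 were at least 2-fold higher, 1 lower and 9 neither, with a median of 0.45. Under the limits on both arrays were 6 of the 16. Relative to the shift 5 were higher and 1 lower, with a median of 0.09. The NF-kappaB inhibitor gene Nfkbia, itself an NF-kappaB target, had a level of 8.94 in circPan3-/- and 7.07 in circPan3+/+ cells, differing by 1.86 or 3.64-fold. Nfkbiz stood at 1.52 or 2.87-fold, Jun at 2.41 and Fos at 2.33, and Ifng and Il17a, at 1.41 and 1.03, lay under the limits. The cytokine gene Il1a was the lower one, with 3.40 in circPan3-/- and 7.18 in circPan3+/+ cells, differing by -3.78 or at least 3.08-fold. Tnf and Il1b, 2 classical inducers of Ccl2 and Cxcl1, differed by 0.10 and -0.12, with values above the limits on both arrays, and the NF-kappaB subunit gene Rela by 0.07. Apart from Il1a, the genes of this list with values above the limits differed by -0.12 or more.

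Of 22 genes that couple chemokine receptors to the cell, 0 were at least 2-fold lower and 2 higher as deposited, with a median of 0.26, but relative to the shift of 0.36, 3 (Gng2, Rac2 and Grk5) were lower and 0 higher, with a median of -0.09. Plcb3, a phospholipase C gene, had 8.09 in circPan3-/- and 6.75 in circPan3+/+ cells, differing by 1.34 or 2.53-fold, and Rgs2, a regulator of G protein signalling, had 1.01 or at least 1.48-fold. The leukocyte gene Rac2 and the G protein subunit gene Gng2 were the lowest at -0.78 and -0.79.

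Markers of myeloid cells were lower on the same array as the chemokines above. Of 16 myeloid markers, 12 were at least 2-fold lower (5 with bounds) and 0 higher, with a median of -1.78. Above the limit were 2 of the 16 in circPan3-/- cells, namely C1qb and Lyz2, and 15 in circPan3+/+ cells. Cd68, a macrophage gene, had 4.21 in circPan3-/- and 6.97 in circPan3+/+ cells, and Adgre1, which encodes a macrophage surface receptor, had 3.36 in circPan3-/- and 6.12 in circPan3+/+ cells. S100a8, of neutrophils and monocytes, had 1.92 in circPan3-/- and 5.85 in circPan3+/+ cells. The pan-leukocyte gene Ptprc differed less, by -0.18. Log2 of the summed signal of the list was 10.80 in circPan3-/- and 11.37 in circPan3+/+ cells, a sum over genes whose probes differ. The sum rests largely on the brightest gene of the list, the lysozyme gene Lyz2. Its level was 10.51 in circPan3-/- and 10.55 in circPan3+/+ cells. The part of myeloid RNA in the lower chemokines was not tested. In a sorted bulk sample, fewer cells of a type and less RNA per cell cannot be told apart.

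The medians of the endothelial, mesenchymal and lymphocyte lists lay nearer to the shift of 0.36 than that of the myeloid list. These lists also held more markers under the limits on both arrays, where a difference cannot be told from background. Such markers were 3 of 9 endothelial, 5 of 9 mesenchymal, 9 of 12 T, NK and innate lymphoid and 3 of 6 B and plasma cell. In the myeloid list 1 of 16 was under both limits, so the medians are no measure of how the cell types differ. Of 9 endothelial markers 2 were at least 2-fold lower, with a median of -0.76, Emcn at -2.88 and Kdr at -1.71, and of 9 mesenchymal markers 3 were lower and 1 higher, with a median of -0.36, Sparc at -1.78 and Acta2 at 1.49. Of 12 T, NK and innate lymphoid markers 3 were lower, with a median of -0.57, among them Gzma with 7.10 in circPan3-/- and 8.15 in circPan3+/+ cells. Of 6 B and plasma cell markers 0 were 2-fold apart, with a median of -0.30. Of the epithelial lists, 4 of 8 enterocyte markers were lower and 9 of 9 Paneth and goblet markers higher, with medians of -0.90 and 2.83. Of 7 genes in the stem cell list 2 (Lgr5 and Olfm4) were lower and 3 higher, namely Smoc2, Axin2 and Epcam. Smoc2 lay under the limits on both arrays and allows no fold, and Axin2 was at least 1.88-fold higher. Epcam marks epithelium in general and was not 2-fold higher relative to the shift. Relative to the shift, 13 of the 16 myeloid, 5 of the 9 endothelial, 3 of the 9 mesenchymal, 5 of the 12 T, NK and innate lymphoid and 2 of the 6 B and plasma cell markers (Cd79b and Cd22) were at least 2-fold lower. The part of these lists in the chemokine differences was not tested either.

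**Figure D5:**
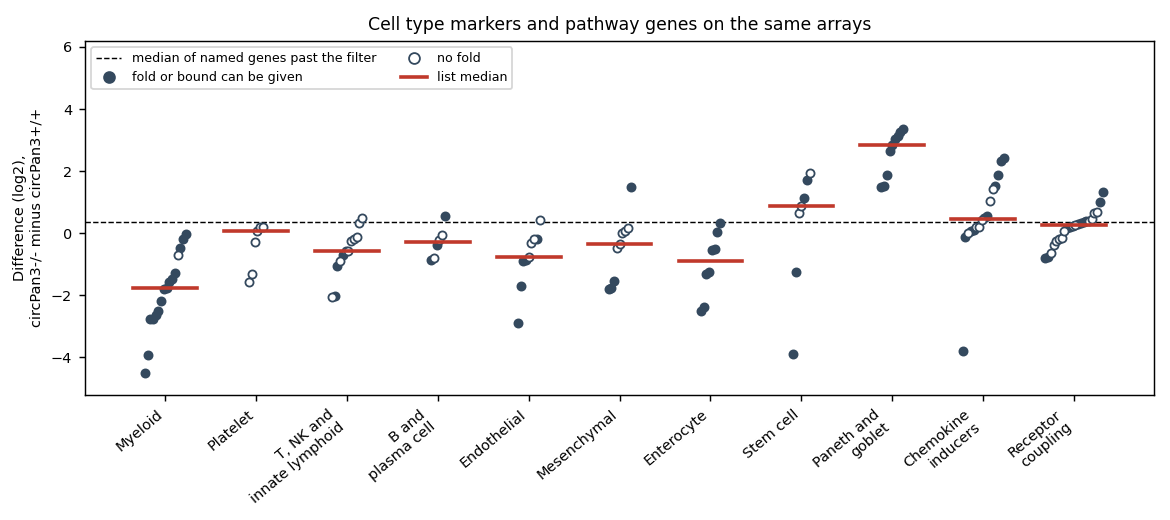
Difference (circPan3-/- minus circPan3+/+, log2, vertical axis) of each gene in 9 lists of cell type markers and 2 lists of pathway genes; filled points allow a fold or a bound, open points do not, red lines are list medians and the dashed line is the median of named genes, 0.36. The myeloid list has the lowest median, -1.78, and the Paneth and goblet list the highest, 2.83.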

How the data were processed

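The values are the authors' deposited log2 RMA signals, 1 column per array, made with Affymetrix Power Tools and RMA per the submitters' processing notes; their versions and the build are not stated in the sources used here, and the log2 base was taken from the range, -0.18 to 13.07. RMA corrects background, normalizes arrays and summarises probes into 1 value per transcript cluster. The number of arrays limits the precision. Whether both arrays were processed alike was not tested. Values found in more than 1 row made up 69.1% of the circPan3+/+ column and 4.20% of the circPan3-/- column. With 1 array per genotype, a difference in processing cannot be told apart from a difference between genotypes.

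Rows were named from the platform annotation, with symbols updated through Entrez identifiers and synonyms in RefSeq (GRCm38.p6). This gave 31215 rows with 1 gene and 1535 with several, which were not named. Named genes are protein-coding genes other than Gm, LOC and Rik models. The brightest row stood for a gene with several; each of the 54 genes had 1. No genome coordinates of rows are given, since their build is not stated; promoter windows carry RefSeq's.

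With 1 array per genotype no test across samples is possible, so genes were described by a difference of at least 2-fold among those with a mean level not under the median row, beside the share of named genes that the rule calls. Every gene of the group is accounted for; other genes were named from lists of markers and pathway genes. The genes, lists and rules were chosen with earlier results of these data known. Alternatives were centring, loess on level (span 0.3), quantile normalization, other filters, control limits and ligand classes, a 1.5-fold rule, and only genes with an unshared circPan3+/+ value. Calculations used Python 3.11.15, pandas 2.3.3 and statsmodels 0.14.6, and were tested on simulated differences.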

Additional observations from a re-analysis of the deposited data

How the results depend on the processing

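The count of genes at least 2-fold lower, 12 of 43, ran from 8 to 17 over its alternatives. These counts rest on unlike numbers of genes, with 8 of 19 among unshared circPan3+/+ values and 9 of 21 with the filter at the upper quartile. The 16 lower genes at 1.5-fold came from a looser rule. Named genes were not counted for these settings, nor for bounds after loess, so their lower and higher counts have no share beside them. The count of higher genes, 3, was 1 after centring, 0 with the filter at the upper quartile of all rows (21 genes left), 7 at 1.5-fold and 1 among genes with an unshared circPan3+/+ value. With bounds, the 6 lower genes were 11 after loess and 0 with the 99th percentile as the limit, and no alternative gave a higher gene.

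The median over the genes, -0.28, was -0.64 after centring, -0.60 after loess, -0.59 after quantile normalization, -0.069 without the filter, -0.71 at the upper quartile and -0.71 with unshared values. The median over inflammatory ligands, -1.12, was, in the same order, -1.48, -1.62, -1.45, -0.57, -1.65 and -1.54. It was -0.28 with dual or other ligands joined and -1.65 with platelet ligands joined. The median over homeostatic ligands, 0.25, turned sign to -0.10 after centring, -0.10 after loess and -0.085 after quantile normalization, which remove the shift of named genes; it was 0.33 at the upper quartile and 0.17 with Ccl21. No homeostatic ligand had an unshared circPan3+/+ value, so that setting gave none. The gap between the classes, -1.38, was -1.52 after loess, -1.37 after quantile normalization, -0.82 without the filter, -1.98 at the upper quartile, -0.53 with dual or other ligands, -1.90 with platelet ligands and -1.30 with Ccl21. The median over receptors, -0.47, was -0.83 after centring, -0.67 after loess, -0.72 after quantile normalization, -0.025 without the filter and -0.54 at the upper quartile. The causes of these shifts were not tested. No paired analysis was possible because each genotype has 1 array, and leaving an array out leaves no comparison. Of the 54 genes, 37 had both levels under the control limits, where a level cannot be told from background. The same held for 14393 of 18309 named genes.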

Other observations

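Relatives of the CC and CXC families, outside the rule, were not lower as a group. Of 7 such genes, 6 passed the level filter, with a median difference of 0.31, and 1 was at least 2-fold higher. Ccrl2, an atypical receptor of the chemoattractant chemerin, was that gene, with 5.43 in circPan3-/- and 3.96 in circPan3+/+ cells, differing by 1.46 with both levels under the limits. Mif, a cytokine that binds Cxcr4 among other receptors, was the single one above the limits, with 7.51 in circPan3-/- and 7.22 in circPan3+/+ cells. Cx3cl1, the membrane-bound fractalkine, had 4.67 in circPan3-/- and 4.08 in circPan3+/+ cells, and its receptor gene Cx3cr1, which marks macrophages, had 3.89 in circPan3-/- and 3.56 in circPan3+/+ cells. Xcl1, made by T and NK cells, differed by -0.56. The Cx3cr1 difference of 0.33 thus lay apart from those of Adgre1, at -2.75, and Cd68, at -2.76, although Cx3cr1 was under the limits on both arrays.

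Rows annotated to several genes of the Ccl19 and Ccl27 families lay under the limits on both arrays. The 5 rows of Ccl19 differed by -0.10 to 0.72 and the 5 rows of Ccl27 by 0.10 to 0.59.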
